A study of Mus musculus with 53 samples.

Results

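The genes described here encode the CD3 complex and the proteins that act just below the T-cell receptor. They are the CD3 chain genes Cd3d, Cd3e, Cd3g and Cd247, the kinase genes Lck, Fyn and Zap70, the adaptor genes Lat and Lcp2, and the costimulatory receptor gene Cd28. The genes were chosen by name, and every probe set that the gene table of the array assigns to one of them alone was taken. Of the 10 genes, 9 had a probe set, 16 probe sets in all among the 22690 of the array. Lck, the kinase that phosphorylates CD3 chains, had none and was not analysed here. Probe sets that exceeded the median of their array on fewer than 3 arrays were left out, and 15 of the 16 passed, among 15585 in the whole series. One of the 15, the Cd247 probe set 1420716_at, exceeded the median on 3 arrays, all of crossed tumours, so it passed through the group in which it is high, and the counts of calls below are also given without it where they change. Each gene is described by its probe set of highest mean, called its lead, with any other probe set beside it.

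RNA was measured in 53 samples of T-cell lymphoblasts from lymphoblastic tumours of untreated C57BL/6 mice, with 1 array per sample. The series compared 15 lymphoma-prone genetic backgrounds. TLX1 transgenic and RUNX heterozygous crossed mice, here called crossed, gave 6 arrays, and TLX1 transgenic mice gave 6. The other 13 backgrounds, which carry no TLX1 transgene by their labels, gave 41 arrays: 9 from Cdkn2a knock out mice with retroviral insertional mutagenesis, 3 each from p53 knock out, beta-catenin transgenic, Ikaros Plastic, ThPOK transgenic, Nup98HoxD13 transgenic, olig1-LMO1 double transgenic, LMO1 transgenic and Tal1-LMO2 double transgenic mice, and 2 each from rag E2A knock out, E2A knock out, Tal1 transgenic and Pokemon transgenic mice. The titles of the 9 Cdkn2a knock out arrays differ and name myc, ras, myb, or pim1 with ccnd3, some marked pure or mix, and they are grouped here by their shared genotype label alone. The crossed tumours carry the status label TLX1 negative, against the transgene in their genotype label, and the sample titles give RUNX1 and olig2 where the genotype labels give RUNX and olig1. The labels name no promoter or driver line, no clone and no pooling, and normal thymus was not analysed here. Whether samples of one background came from different animals is not stated, and p-values here therefore cover the spread among these samples alone, part of which may be technical. In bulk samples such as these, fewer cells of a type and less RNA per cell cannot be told apart.

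The T-cell receptor has no signalling tail of its own. It is carried to the surface with the CD3 dimers, and the tails of the CD3 and zeta chains hold the motifs that LCK and FYN phosphorylate. ZAP-70 docks there and phosphorylates LAT and SLP-76, the product of Lcp2, which gather the enzymes that raise calcium and activate RAS, while CD28 adds a second signal from the antigen-presenting cell. In the thymus the same machinery serves first the pre-T-cell receptor and then the mature receptor.

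Cd3d, Cd3g and Cd3e lie close together on mouse chromosome 9, where Cd3g and Cd3d are transcribed away from each other with starts 1355 bases apart. Their promoter windows, which run 250 bases before to 50 bases after the start of transcription in the RefSeq annotation of GRCm38.p6, are shown because Cd3d and Cd3e were called lower in crossed than in TLX1 tumours and their neighbour Cd3g was not. Capitals mark E boxes (CANNTG, which reads the same on both strands) and RUNX cores (TGNGGT, or ACCNCA on the other strand). The sequences read 5′ to 3′ on the strand of each gene.
Cd3d, chr9:44981536-44981835, strand +: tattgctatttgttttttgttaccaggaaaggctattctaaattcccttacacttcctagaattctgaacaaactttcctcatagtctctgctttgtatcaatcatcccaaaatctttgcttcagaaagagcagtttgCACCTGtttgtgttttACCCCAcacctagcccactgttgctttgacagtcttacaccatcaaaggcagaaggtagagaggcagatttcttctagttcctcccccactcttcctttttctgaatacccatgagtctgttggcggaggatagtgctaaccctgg
Cd3g, chr9:44980382-44980681, strand -: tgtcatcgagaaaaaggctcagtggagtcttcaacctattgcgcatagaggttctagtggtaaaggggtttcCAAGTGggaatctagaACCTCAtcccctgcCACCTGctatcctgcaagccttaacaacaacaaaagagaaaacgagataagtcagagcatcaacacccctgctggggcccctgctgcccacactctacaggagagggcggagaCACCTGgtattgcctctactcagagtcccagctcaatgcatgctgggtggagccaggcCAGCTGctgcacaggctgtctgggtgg
Cd3e, chr9:45009562-45009861, strand -: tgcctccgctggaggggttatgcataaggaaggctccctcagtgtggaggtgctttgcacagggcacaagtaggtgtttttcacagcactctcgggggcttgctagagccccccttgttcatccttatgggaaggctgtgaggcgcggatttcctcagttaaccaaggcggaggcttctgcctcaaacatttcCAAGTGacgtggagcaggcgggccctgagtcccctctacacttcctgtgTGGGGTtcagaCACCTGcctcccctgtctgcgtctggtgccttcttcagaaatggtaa
Each of the 3 windows held 1 RUNX core. Counted from 0 at the start base, it began at position -96 in the Cd3d window (ACCCCA), at -162 in the Cd3g window (ACCTCA) and at -8 in the Cd3e window (TGGGGT). E boxes numbered 1 in the Cd3d window, 4 in the Cd3g window and 2 in the Cd3e window, and no E box overlapped a RUNX core there. Of 32851 promoter windows of that length, 45.8% held a RUNX core and 72.3% an E box, so either match is common. A match describes the letters and is not evidence of a bound factor.

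Several arrays stood apart, and the results that rest on them are given with and without them. Clustering on 27 bacterial control probe sets, cut at 4, put 38 arrays in the largest set, the 6 TLX1 arrays with p53 knock out replicates 1 and 2 in a set of 8, the 6 crossed arrays in a set of their own and Tal1-LMO2 replicate 2 alone. Array medians ran between 377 and 590 in linear intensity, and precision is limited by how many arrays there are. P53 knock out replicate 2 went against its label of T-cell lymphoblasts. Its summed intensity over 7 T-lineage markers was 8587, against 14320 to 31302 in the other 40 arrays without a TLX1 transgene. Thy1, Bcl11b and Gata3 were at their lowest of 53 there, and Lef1, Il7r and Ets1 ranked 52, 50 and 50 from the top. Cd7 went the other way, at 9.34 and rank 12 from the top, above its median of 8.87 elsewhere. Over 8 stromal, endothelial and epithelial markers, called stromal markers below, its sum was 50324, against 2665 to 24452 in those 40 arrays. Of these 8, 6 were at their highest of 53. They were the endothelial genes Cdh5 (12.74, against at most 10.26 elsewhere) and Pecam1 (11.98, against 10.30), with Sparc (14.01, against 12.51), Col3a1 (13.38, against 13.02), Col1a2 (12.61, against 12.48) and Col1a1 (12.45, against 12.39). The epithelial markers Epcam and Krt8 were not among those 6 and ranked 40 and 51 from the top. Its closest array correlated with it at 0.869 over all probe sets, while every other array had a partner at 0.906 or more. Crossed replicate 1 had a summed intensity of 91503 over 12 myeloid markers, against 15543 to 22204 in the other 5 crossed arrays. Marker sums run over every listed marker with a probe set, which for the B and NK lists are 9 genes each, of which 6 and 4 were tested. No marker was at 0 on any array, and the lowest log2 marker value was 6.91.

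**Figure D1:**
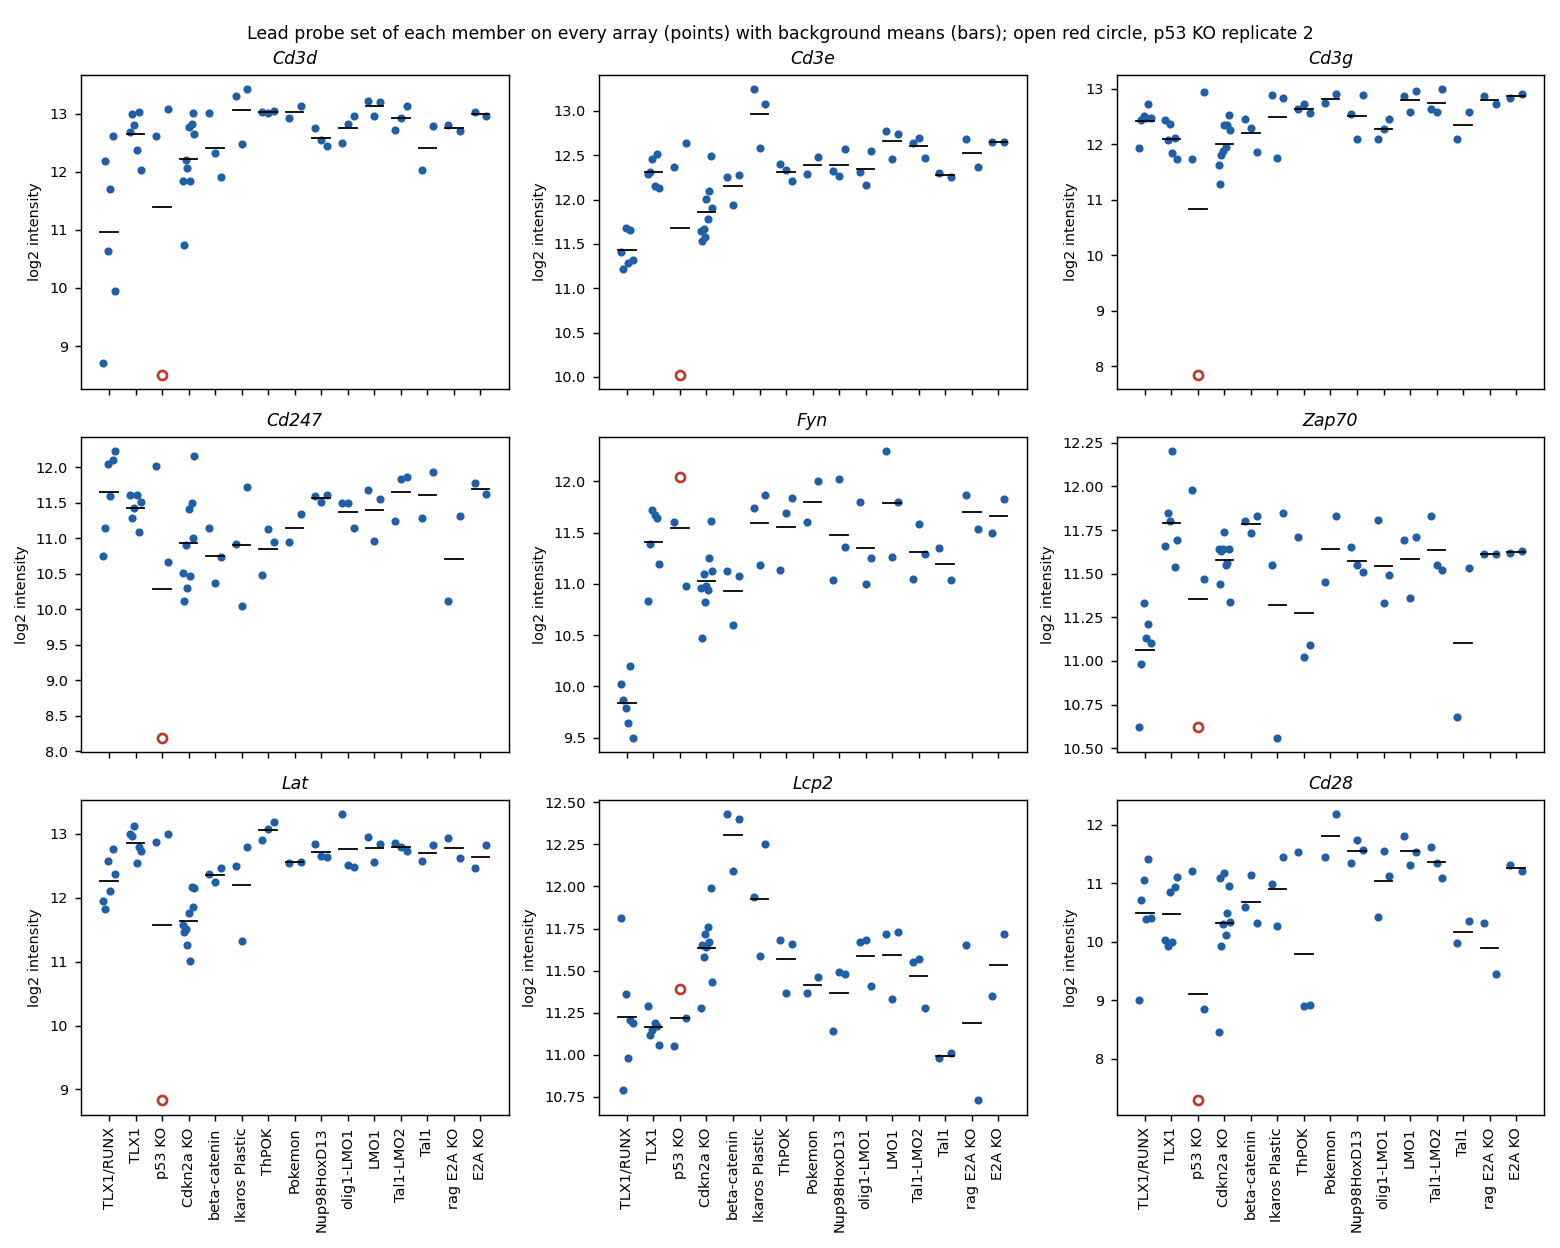
Log2 intensity of the lead probe set of the 9 measured genes on each of 53 arrays, grouped by background, with bars at the background means and an open red circle for p53 knock out replicate 2. That array is the lowest of all in Cd3d, Cd3e, Cd3g, Cd247, Lat and Cd28, and the 6 crossed arrays are the lowest in Fyn.

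The levels of the 9 genes varied with background to different degrees. Among the 13 backgrounds without a TLX1 transgene, 10 of 15 member probe sets differed (limma F test, Benjamini-Hochberg adjusted over all probe sets, threshold 0.05), where 77.9% of all probe sets did. Without 1420716_at the count was 9. By their lead probe sets the genes that passed were Lcp2 (adjusted p = 8.59e-05), Cd3e (0.00575), Cd28 (0.00719), Lat (0.0249) and Fyn (0.0285). Cd3g (0.054), Cd247 (0.259), Zap70 (0.469) and Cd3d (0.473) did not pass. Without p53 knock out replicate 2 the Cd3e test gave adjusted p = 2.69e-06, the Lat test 3.62e-06 and the Cd3g test 0.0124.

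Set against the mean of the other backgrounds without a TLX1 transgene, member probe sets were called higher 17 times and lower 30 times over 15 comparisons (limma, same adjustment and threshold). Over all probe sets 11.1% of such tests were called higher and 11.4% lower. Without 1420716_at the counts were 13 and 29. Of the lower calls, 8 came from crossed tumours, 8 from p53 knock out tumours and 5 from Cdkn2a knock out tumours. Member probe sets had 0 calls in E2A knock out (0.885% of all probe sets higher and 0.879% lower), rag E2A knock out (0.751% and 1.55%), Nup98HoxD13 (1.04% and 2.34%), Pokemon (1.12% and 1.97%) and Tal1-LMO2 tumours (1.29% and 2.53%). By trended and robust eBayes these counts were also 0. At an unadjusted p under 0.05 they were 1, 6, 0, 1 and 1 of 15 in that order, beside 14.3%, 19.5%, 17.4%, 16.3% and 20.5% of all probe sets.

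**Figure D2:**
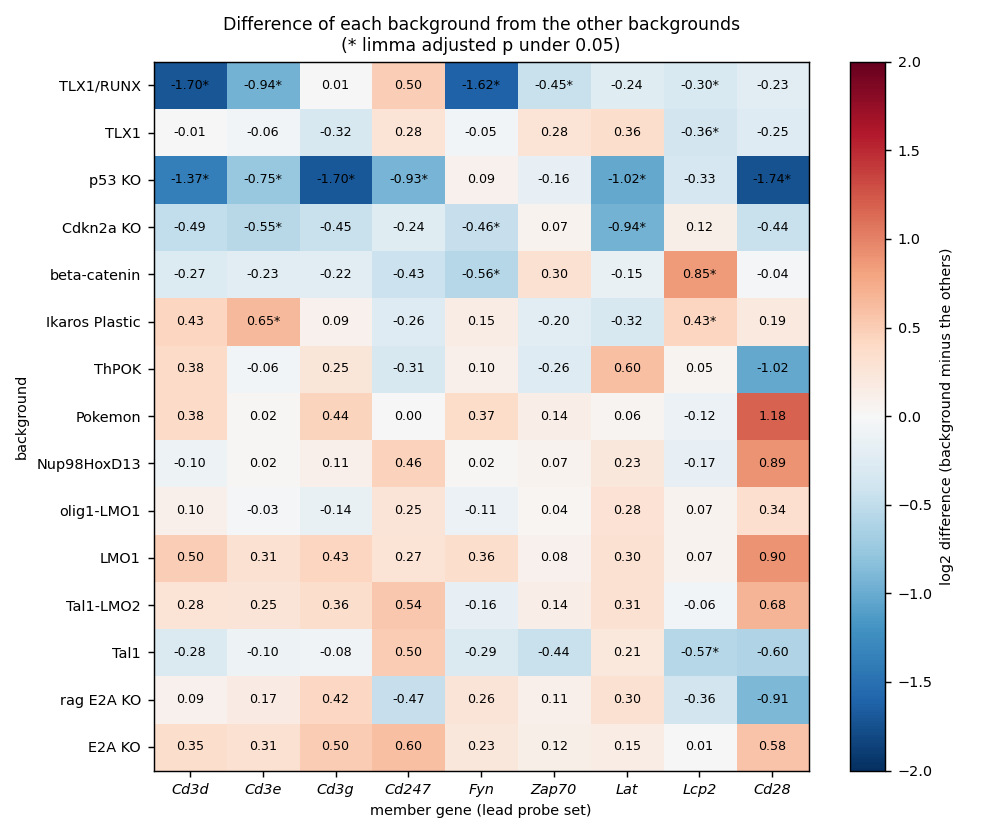
Log2 difference of each background (rows) from the mean of the other backgrounds without a TLX1 transgene, for the lead probe set of each gene (columns), with an asterisk where the limma adjusted p is under 0.05. Crossed tumours reach -1.70 in Cd3d and -1.62 in Fyn, and the p53 knock out row holds 6 lower calls.

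The chain genes of the CD3 complex come first. Cd3e, whose product pairs with both the delta and the gamma chain, had its highest mean in Ikaros Plastic tumours, 12.97 ± 0.35 (log2, SD, n = 3). Next were LMO1 at 12.66 ± 0.17 (n = 3), E2A knock out at 12.65 (n = 2), Tal1-LMO2 at 12.60 ± 0.11 (n = 3) and rag E2A knock out at 12.53 ± 0.22 (n = 2). Nup98HoxD13, Pokemon, olig1-LMO1, ThPOK, TLX1, Tal1 and beta-catenin means followed between 12.39 and 12.16. The lowest means were 11.86 ± 0.31 in Cdkn2a knock out (n = 9), 11.68 ± 1.44 in p53 knock out (n = 3) and 11.43 ± 0.20 in crossed tumours (n = 6). No neighbours in this order were further apart than the larger of their SDs. The place of p53 knock out tumours rests on replicate 2. Without it their mean was 12.50 ± 0.19 (n = 2), between rag E2A knock out and Nup98HoxD13, and crossed tumours then lay 0.43 below Cdkn2a knock out tumours, more than the larger SD of 0.31.

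Ikaros Plastic tumours carried 13.25, 12.58 and 13.08 of Cd3e, against 11.53 to 12.77 in the 37 arrays of the other 12 backgrounds without p53 knock out replicate 2. Replicates 1 and 3 were above all 37 and replicate 2 was inside their range. The difference from the other backgrounds was 0.65 ± 0.23 (log2, SE; limma adjusted p = 0.0312), and it missed the threshold without replicate 1 or replicate 3 and when each array was centred on its median (0.49, adjusted p = 0.108). Stromal markers were higher in 3 of 8 cases in these tumours (summed intensities of 9453 to 24452), myeloid markers in 3 of 12 (18798 to 25582), NK markers in 2 of 4 (9098 to 14464) and B-lineage markers in 1 of 6 (3350 to 3651), and their part in the result was not tested. In all, 4 of 15 member probe sets were called higher in Ikaros Plastic tumours (17.4% of all probe sets) and 0 lower (9.72%). After centring none of the 4 was called, and the share of higher calls among all calls was 33.2%, against 64.2% as deposited.

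Cd3g, the gamma chain gene, and Cd3d, the delta chain gene, varied together over the 13 backgrounds without a TLX1 transgene. As a description over background means that share arrays and normalization, Cd3d correlated with Cd3g at 0.94 and with Cd3e at 0.87 (Pearson, n = 13), and at 0.78 and 0.80 without p53 knock out replicate 2. Fyn correlated with Cd3d at 0.43 and with Cd3g at 0.35, and at 0.81 and 0.86 without that array. Varying together was thus not particular to the chain genes. Cd3d means there ran between 13.13 ± 0.14 in LMO1 tumours (n = 3) and 11.40 ± 2.53 in p53 knock out tumours (n = 3), or 12.85 ± 0.33 without replicate 2 (n = 2). Cdkn2a knock out tumours then had the lowest mean of the 13, 12.22 ± 0.71 (n = 9). ThPOK tumours were the tightest group of 3, with 13.03, 13.01 and 13.04 of Cd3d.

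Between crossed and TLX1 tumours, Cd3d was called different and Cd3g was not. Cd3d read 8.71, 12.18, 10.64, 11.71, 12.62 and 9.95 in crossed replicates 1 to 6, against 12.69, 12.99, 12.81, 12.38, 13.03 and 12.04 in TLX1 tumours. Cd3g read 11.93, 12.44, 12.51, 12.48, 12.73 and 12.48 in the same crossed tumours, against 12.43, 12.07, 12.36, 11.84, 12.11 and 11.74 in TLX1 tumours. Cd3d thus varied widely among crossed tumours, with replicates 2 and 5 inside the TLX1 range and 4 below all of it. Cd3g stayed within a narrower band. Its crossed replicates 2 to 6 were above every TLX1 value, and only replicate 1 lay inside the TLX1 range. The Cd3d difference was -1.69 ± 0.50 (log2, crossed minus TLX1, SE; limma adjusted p = 0.0035), a 3.23-fold lower level, and without crossed replicate 1 it was -1.24 (adjusted p = 0.0232). The Cd3g difference was 0.34 ± 0.38 (adjusted p = 0.471), which leaves a change of either sign possible. Its SE comes from a spread that takes in p53 knock out replicate 2. Without that array Cd3g was called lower in TLX1 tumours against the 13 backgrounds (-0.44 ± 0.15, limma adjusted p = 0.0134). Crossed tumours then differed from those 13 by -0.10 ± 0.15 (adjusted p = 0.567). With all 15 backgrounds the correlation of Cd3d with Cd3g was 0.64 (n = 15).

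**Figure D3:**
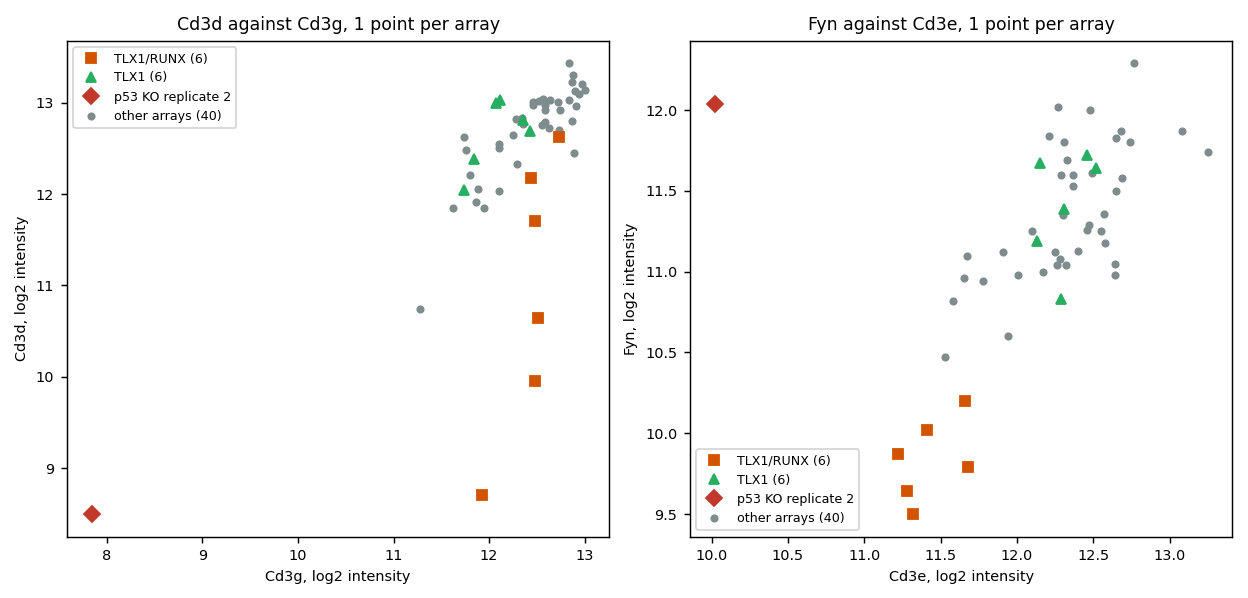
Left, Cd3d against Cd3g, and right, Fyn against Cd3e, in log2 intensity with 1 point per array (orange squares, crossed; green triangles, TLX1; red diamond, p53 knock out replicate 2; grey, the other 40 arrays). In the left plot the crossed arrays spread between 8.71 and 12.62 in Cd3d and between 11.93 and 12.73 in Cd3g. In the right plot they lie at low values of both genes.

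Cd3e was low in every crossed tumour. It read 11.22 to 11.68 in the 6 crossed tumours (median 11.36), against 12.13 to 12.52 in the 6 TLX1 tumours (median 12.30), and the groups did not overlap. The difference was -0.88 ± 0.22 (adjusted p = 7e-04), or -0.51 (adjusted p = 0.0468) with centred arrays. Some Cdkn2a knock out arrays reached as low as 11.53, so a low Cd3e level was not confined to the crossed tumours.

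Cd247, which encodes the zeta chain, went another way. Its lead probe set 1426396_at read 10.75 to 12.22 in crossed tumours (median 11.83), against 11.09 to 11.61 in TLX1 tumours (median 11.47), and the difference of 0.22 ± 0.37 did not pass (adjusted p = 0.629). A second probe set, 1452539_a_at, was higher by 1.23 ± 0.32 in crossed tumours (10.16 against 8.93; adjusted p = 0.00113). Crossed replicate 1 was the exception at 8.90, inside the TLX1 range of 8.34 to 9.58, and the other 5 lay between 9.65 and 10.85. The dim probe set 1420716_at averaged 8.65 in crossed and 8.48 in TLX1 tumours. Its calls against the other backgrounds, higher in crossed, TLX1, olig1-LMO1 and LMO1 tumours and lower in Cdkn2a knock out tumours, are not read here because of how it passed the filter, and every olig1-LMO1 and LMO1 array was below its own array median for it. The probe sets of this gene thus did not go together, and which transcripts each one reads was not examined here.

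Among the kinase genes, Fyn split crossed and TLX1 tumours without overlap. FYN is a SRC-family kinase that shares substrates with LCK in thymocytes. Fyn read 10.02, 9.87, 9.79, 9.64, 10.20 and 9.50 in crossed tumours, against 10.83, 11.39, 11.72, 11.67, 11.64 and 11.19 in TLX1 tumours. The crossed arrays were the 6 lowest of the series, since the lowest value elsewhere was 10.47 in a Cdkn2a knock out tumour. The difference was -1.57 ± 0.20 (adjusted p = 5.83e-09), 2.97-fold lower, and the second probe set fell by 1.02 ± 0.29 (adjusted p = 0.00225). With centred arrays the 2 values were -1.20 and -0.65, both still called.

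Zap70, the kinase gene whose loss blocks T-cell development, was also lower in crossed tumours. Its lead probe set read 10.62 to 11.33 in crossed tumours (median 11.11), against 11.54 to 12.20 in TLX1 tumours (median 11.74), with no overlap. The difference of -0.73 ± 0.17 (adjusted p = 0.000409) was -0.35 with adjusted p = 0.0823 after centring. The second probe set, 1439749_at, differed by -1.24 ± 0.10 (adjusted p = 5.69e-14), and by -0.87 (adjusted p = 5.83e-12) after centring. Over the 13 backgrounds without a TLX1 transgene the 2 Zap70 probe sets correlated at -0.15 (Pearson, a description over means), so they do not report one common level.

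With all arrays in the fit, the lead probe sets of the adaptor and costimulatory genes were not called between these groups. Lat, the membrane scaffold, read 11.82 to 12.77 in crossed tumours, against 12.55 to 13.12 in TLX1 tumours, and the difference of -0.60 ± 0.35 missed the threshold (adjusted p = 0.148). Its SE comes from a spread that takes in p53 knock out replicate 2, where Lat read 8.83. Without that array Lat was called lower in crossed tumours against the 13 backgrounds (-0.35 ± 0.14, limma adjusted p = 0.0324). The missed call against TLX1 tumours thus does not show an equal level. Lcp2 differed by 0.06 ± 0.14 by its lead probe set (adjusted p = 0.732) and by -0.26 ± 0.10 by the other (adjusted p = 0.0324), and with centred arrays these were 0.43 (adjusted p = 0.00492) and 0.12 (adjusted p = 0.24), so its direction depends on the scaling. Cd28 differed by 0.02 ± 0.46 (adjusted p = 0.969).

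In all, 8 of 15 member probe sets differed between crossed and TLX1 tumours, 1 higher and 7 lower, where 22.3% of all probe sets were higher and 34.5% lower (56.9% in all). After centring, which raised the median of all differences by 0.37, the members split into 3 higher and 5 lower, and all probe sets into 7210 higher and 3359 lower, against 3477 and 5384 as deposited. The groups also differed in ways other than genotype. An 18S ribosomal control read 12.35 or more (log2) on every crossed array and at most 9.77 on any other. The log2 array median was 8.61 ± 0.03 in crossed and 8.99 ± 0.06 in TLX1 tumours, and the beta-actin ratio, 3′ over 5′ signal in log2, was 0.77 ± 0.11 in crossed and 1.39 ± 0.62 in TLX1 tumours (SD, n = 6 each). Array set and genotype cannot be told apart in this comparison. Of the T-lineage markers, 2 of 7 were lower and 0 higher in crossed tumours, with summed intensities of 17181 to 27844, against 25318 to 29679 in TLX1 tumours. Of the myeloid markers, 4 of 12 were higher and 2 lower, with sums of 15543 to 91503, against 15679 to 28258. Erythroid markers were lower in 2 of 3 cases (610 to 831, against 1488 to 3504), B-lineage markers in 2 of 6 (2214 to 3352, against 3353 to 5176) and stromal markers in 1 of 8 (11713 to 16785, against 7081 to 27752), and 1 of 4 NK markers was higher and 1 lower (7780 to 15175, against 8379 to 18040). The part of these markers in the result was not tested.

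Of the other genes of the receptor pathway, 7 of 46 were higher and 8 lower in crossed than in TLX1 tumours, beside 22.3% and 34.5% of all probe sets. Their median difference was -0.04 beside -0.07 over all probe sets. Ptprc, which encodes the phosphatase CD45 that primes SRC-family kinases, was higher by 0.51 ± 0.17 (adjusted p = 0.0113). Rasgrp1, whose product activates RAS downstream of LAT, was lower by 0.70 on the log2 scale (-0.70 ± 0.24, adjusted p = 0.011).

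Against the 13 backgrounds without a TLX1 transgene, TLX1 tumours had 1 member probe set higher and 3 lower (25.4% of all probe sets in each direction), and 0 higher without 1420716_at. By lead probe set the call was Lcp2, 11.06 to 11.29 in the 6 TLX1 arrays and -0.36 ± 0.10 from the others (adjusted p = 0.00397). The call was lost with the array set as a block, with the beta-actin covariate and with the replicate block. Differences in Cd3d (-0.013), Cd3e (-0.061) and Fyn (-0.047) were not called. Crossed tumours had 2 member probe sets higher and 8 lower (23.5% and 40.7% of all probe sets), and 1 higher without 1420716_at. The lower ones were Cd3d (-1.70 ± 0.38), Cd3e (-0.94 ± 0.17), both probe sets of Fyn (-1.62 ± 0.15 and -0.86 ± 0.22), both of Zap70 (-0.45 ± 0.13 and -1.21 ± 0.08) and both of Lcp2 (-0.30 ± 0.10 and -0.62 ± 0.08). The Lcp2 lead call was lost without crossed replicate 2 or 4. Without p53 knock out replicate 2, Lat was called lower in crossed tumours as well (-0.35 ± 0.14, limma adjusted p = 0.0324). With centred arrays the members split into 3 higher and 6 lower, and the share of higher calls among all calls was 62.6%, against 36.6% as deposited. The Lcp2 lead reached 0.00215 and the Zap70 lead -0.14 (adjusted p = 0.355). Markers of other cells moved in both comparisons. In crossed tumours, myeloid markers were higher in 7 of 12 cases and lower in 1 (summed intensities of 15543 to 91503, against 6367 to 36290 over the 40 arrays without a TLX1 transgene and without p53 knock out replicate 2), and stromal markers higher in 4 of 8 (11713 to 16785, against 2665 to 24452). B-lineage markers were lower in 3 of 6 cases there (2214 to 3352, against 2416 to 7945) and erythroid markers in 2 of 3 (610 to 831, against 868 to 3281). Of the NK markers 1 of 4 was higher and 1 lower (7780 to 15175, against 3330 to 17281), and of the T-lineage markers 1 of 7 was higher and 2 lower (17181 to 27844, against 14320 to 31302). In TLX1 tumours, stromal markers were higher in 4 of 8 cases (7081 to 27752), myeloid markers in 3 of 12 (15679 to 28258), B-lineage markers in 2 of 6 (3353 to 5176) and erythroid markers in 2 of 3 (1488 to 3504), and T-lineage markers were higher in 3 of 7 and lower in 2 (25318 to 29679). NK markers had no call in TLX1 tumours (8379 to 18040). The part of these markers in the results was not tested.

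Cdkn2a knock out tumours with insertional mutagenesis had the lowest Lat level outside p53 knock out replicate 2. Lat read 11.01 at the lowest, 11.57 at the median and 12.17 at the highest of 9 arrays, against 11.33, 12.73 and 13.31 in the 31 arrays of the other 12 backgrounds without that p53 array. All 9 lay below the median of the others, with some overlap. The difference from the other backgrounds was -0.94 ± 0.23 (adjusted p = 0.00111), and -1.05 ± 0.12 without the p53 array. Cd3e was lower by 0.55 (-0.55 ± 0.14, adjusted p = 0.00182), with 8 of 9 arrays below the median of the others, and Fyn was lower by both probe sets (-0.46 ± 0.13, adjusted p = 0.00375, and -0.76 ± 0.19, adjusted p = 0.0011). Without p53 knock out replicate 2, Cd3d (-0.61 ± 0.25, adjusted p = 0.0446) and Cd3g (-0.57 ± 0.13, adjusted p = 0.000347) were called lower as well. Zap70 by its lead (0.07) and Lcp2 by its lead (0.12) were not called.

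In this background 5 of 15 member probe sets were lower and 2 higher (15.9% and 26.8% of all probe sets; 4 lower without 1420716_at), and the 9 lead probe sets had a median difference of -0.45 beside 0.05 over all probe sets. With centred arrays the members split into 5 lower and 1 higher, and the share of higher calls among all calls was 35.5%, against 62.8% as deposited. T-lineage markers were lower in 4 of 7 cases and higher in 0, among them Lef1 (-1.33 ± 0.24), Bcl11b (-0.91 ± 0.24), Gata3 (-0.87 ± 0.21) and Thy1 (-0.39 ± 0.14), with summed intensities of 16466 to 22037, against 14320 to 31302 over the 40 arrays without a TLX1 transgene and without the p53 array. Myeloid markers were higher in 4 of 12 cases (summed intensities of 15854 to 23458), stromal markers in 2 of 8 (8092 to 16653), B-lineage markers in 2 of 6 (2827 to 6504) and erythroid markers in 1 of 3 (985 to 2072). NK markers were lower in 1 of 4 cases (3330 to 13234). Their part in the result was not tested.
Among the other pathway genes 5 of 46 were higher and 4 lower in Cdkn2a knock out tumours, beside 26.8% and 15.9% of all probe sets. Pag1, which encodes an adaptor that recruits the inhibitory kinase CSK, fell by 1.26 (-1.26 ± 0.23, adjusted p = 2.93e-05), and Rasgrp1 rose by 0.76 ± 0.16 (adjusted p = 0.00013).

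Beta-catenin transgenic tumours set Lcp2 and Fyn apart in opposite directions. Lcp2, the SLP-76 gene, read 12.43, 12.09 and 12.40 in these tumours, against 10.73 to 12.25 in the 37 arrays of the other 12 backgrounds without p53 knock out replicate 2. Replicates 1 and 3 were above all 37, and replicate 2 was below 1 of them. The differences were 0.85 ± 0.14 (adjusted p = 9.5e-06) and 0.67 ± 0.11 (adjusted p = 5.12e-06) by the 2 probe sets, and the lead call held in each alternative run. Fyn read 11.12, 10.60 and 11.08 by its lead probe set, -0.56 ± 0.21 from the others (adjusted p = 0.0336), a call lost when any of the 3 replicates was left out. The second Fyn probe set read 9.25, 8.46 and 9.20, against 8.55 to 11.57 in the same 37 arrays, a difference of -1.57 ± 0.30 (adjusted p = 6.08e-05).

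In these tumours 3 of 15 member probe sets were higher and 2 lower (21.0% and 11.6% of all probe sets), also with centred arrays, where the share of higher calls among all calls was 35.5%, against 64.5% as deposited. Other pathway genes were higher in 11 of 46 cases and lower in 4, with a median difference of 0.14 beside 0.03 over all probe sets. Dgka, whose product removes the diacylglycerol that activates RASGRP1, was higher by 2.03 ± 0.31 (adjusted p = 1.91e-06), and Rasgrp1 itself by 1.23 ± 0.25 (adjusted p = 0.000153). Cd5, an inhibitory receptor gene, was higher by 1.92 ± 0.47 (adjusted p = 0.00147), the ZAP-70 relative Syk by 1.12 ± 0.24 (adjusted p = 0.000324), and Pag1 was lower (-1.91 ± 0.37, adjusted p = 9.31e-05). B-lineage markers were higher in 5 of 6 cases, among them Ms4a1 (1.53 ± 0.35), Cd79a (1.23 ± 0.33) and Cd22 (0.65 ± 0.19), with summed intensities of 4223 to 7307, against 2416 to 7945 over the 40 arrays without a TLX1 transgene and without the p53 array. Myeloid markers were higher in 2 of 12 cases (20098 to 36290), NK markers in 1 of 4 (4976 to 7406) and erythroid markers in 1 of 3 (1275 to 1430). The part of these markers in the result was not tested.

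Lcp2 had the smallest adjusted p of the 9 lead probe sets among the 13 backgrounds. Below beta-catenin tumours came Ikaros Plastic tumours at 11.92 ± 0.33 (n = 3), which were higher than the others by 0.43 ± 0.14 (adjusted p = 0.0209). That call was lost without replicate 1 or 3. The lowest mean was in Tal1 tumours, 10.98 and 11.01, with a difference of -0.57 ± 0.17 (adjusted p = 0.0468) that missed the threshold when either array was left out, the single member call there (1.56% of all probe sets lower, 2.99% higher). The second Lcp2 probe set, 1418642_at, and the second Zap70 probe set, 1439749_at, were both called higher in beta-catenin, Cdkn2a knock out, Ikaros Plastic and ThPOK tumours. The second Lcp2 probe set was lower in olig1-LMO1 tumours (-0.34 ± 0.11, adjusted p = 0.0318), which had 1 member probe set higher and 1 lower (4.36% and 9.07% of all probe sets). The second Zap70 probe set was lower in LMO1 tumours (-0.34 ± 0.11, adjusted p = 0.0223), which also had 1 higher and 1 lower (4.22% and 12.9%). Without 1420716_at both had 0 higher. In LMO1 tumours B-lineage markers were higher in 3 of 6 cases (2662 to 7945), and their part in the result was not tested. The 4 backgrounds where both second probe sets were higher had log2 array medians of 9.01 to 9.08 on average, against 8.80 to 8.96 in the other 9. The part of the array median in these calls was not tested.

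Cd28 varied widely within backgrounds. ThPOK tumours carried 11.54, 8.90 and 8.91, p53 knock out tumours 11.20, 7.29 and 8.85, and Cdkn2a knock out tumours between 8.45 and 11.18 (median 10.34). Means elsewhere among the 13 ran between 9.89 ± 0.62 in rag E2A knock out (n = 2) and 11.81 ± 0.52 in Pokemon tumours (n = 2). Low and high Cd28 arrays thus stood side by side in the same genotype, and the second probe set gave the same picture, with 10.82, 8.41 and 8.46 in ThPOK tumours. Both Cd28 probe sets correlated at 0.94 over 15 background means. The ThPOK difference was -1.02 by the lead probe set, not called, and -1.13 ± 0.42 by the second (adjusted p = 0.045). In ThPOK tumours 2 of 15 member probe sets were higher and 1 lower (14.3% and 10.2% of all probe sets), with a share of higher calls among all calls of 38.2% after centring, against 58.4% as deposited. Myeloid markers were higher in 5 of 12 cases in ThPOK tumours (summed intensities of 19165 to 27757), erythroid markers in 2 of 3 (1503 to 2204) and stromal markers in 2 of 8 (9472 to 14534). T-lineage markers were lower in 1 of 7 (20506 to 23771) there, and the part of these markers in the result was not tested. Lat had its highest background mean there, 13.06 ± 0.14 (n = 3), which was not called.

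**Figure D4:**
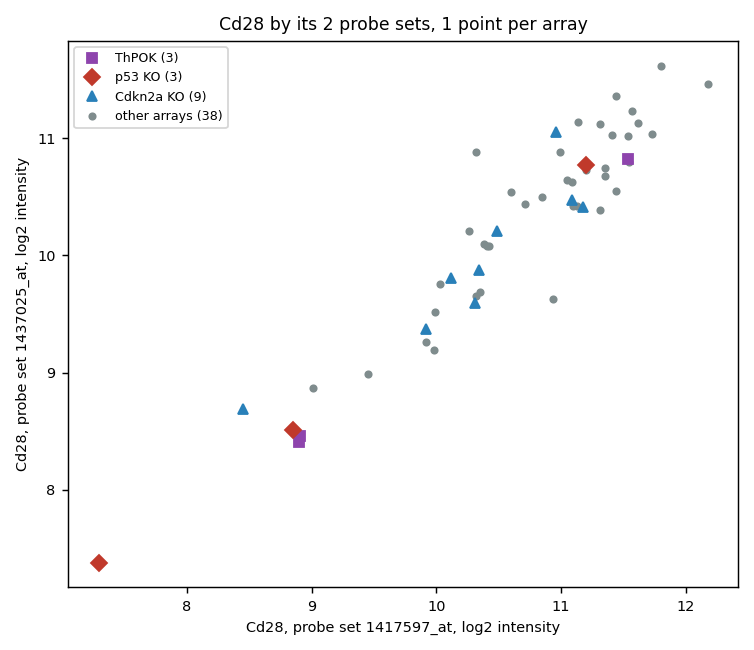
Log2 intensity of the 2 Cd28 probe sets on each of 53 arrays, with ThPOK, p53 knock out and Cdkn2a knock out arrays marked. The points lie along a diagonal, with ThPOK replicates 2 and 3 near 8.90 and replicate 1 at 11.54 on the horizontal axis.

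P53 knock out tumours gave 8 lower and 1 higher call among 15 member probe sets (25.3% and 21.5% of all probe sets), and most of these rested on 1 array. Replicates 1, 2 and 3 read 12.62, 8.50 and 13.09 for Cd3d, and 12.37, 10.02 and 12.64 for Cd3e. Lat read 8.83 in replicate 2, against 12.87 or more in the other two. Replicates 1 and 3 were among the other tumours, and replicate 2 was the lowest of the series in each. Fyn went the opposite way on that array, at 12.04 beside 11.60 and 10.98, and Lcp2 at 11.39 was beside 11.05 and 11.22. In the comparison with all 3 arrays, 6 of 8 genes of the stromal, endothelial and epithelial list were called higher. T-lineage markers were lower in 2 of 7 cases. Myeloid markers were higher in 2 of 12 cases, erythroid markers in 1 of 3, NK markers in 1 of 4 and B-lineage markers in 1 of 6, with 1 B-lineage marker lower. The epithelial markers Epcam (7.89) and Krt8 (7.81) were in replicate 2 below their medians over the other arrays (8.31 and 8.34). In replicate 2 the summed intensities were 30486 for myeloid, 4017 for erythroid, 4796 for NK and 7016 for B-lineage markers, against 6367 to 36290, 868 to 3281, 3330 to 17281 and 2416 to 7945 in the other 40 arrays. Their part in the result was not tested. Without replicate 2 only 1 member probe set was called lower (14.2% of all probe sets) and 0 higher (14% of all probe sets). It was the second of Lcp2 (-0.45 ± 0.13, limma adjusted p = 0.00659), which replicate 2 did not lower, at 9.62 beside 9.31 in replicate 1. The lead differences were then 0.078 for Cd3d, 0.074 for Cd3e, -0.20 for Cd3g, 0.13 for Cd247, 0.35 for Lat and -0.83 for Cd28.

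Pairs of related genotypes gave no member call. Rag E2A knock out against E2A knock out tumours, Tal1-LMO2 against Tal1 tumours and olig1-LMO1 against LMO1 tumours had 0 of 15 member probe sets called in limma (0%, 0.25% and 0.5% of all probe sets), and 0 by trended and robust eBayes. At an unadjusted p under 0.05 the counts were 0, 2 and 0 of 15, beside 5.01%, 7.05% and 8.93% of all probe sets. The 2 were the lead Lcp2 probe set (0.47 ± 0.22, Tal1-LMO2 minus Tal1, adjusted p = 0.639) and the second Cd28 probe set (1.4 ± 0.64, adjusted p = 0.636). With 2 or 3 arrays in a group the intervals are wide, and these results do not show that the genotypes act alike.

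Genes that followed the CD3 chains were ranked by Pearson correlation with the mean standardised profile of Cd3d, Cd3e and Cd3g over the 15 background means. The nearest of 9147 genes were Ripor2 (0.891), Lef1 (0.883), which encodes a TCF-family transcription factor of early T cells, Rtcb (0.868), Dennd2d (0.860) and Prmt7 (0.846). Over the 13 backgrounds without a TLX1 transgene and without p53 knock out replicate 2, the first 5 were Dusp10 (0.921), Arhgef3 (0.920), the Notch pathway genes Dtx1 (0.914) and Hes1 (0.896), and Dennd2d (0.890). Dennd2d alone was in both lists. These are descriptions over means that share arrays and normalization.

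Of 57 other genes of the receptor pathway, 46 were tested and 27 differed among the 13 backgrounds, beside the 77.9% of all probe sets. The lists were adaptors (10 of 14), effectors (6 of 11), receptors (5 of 9), phosphatases and ligases (4 of 6) and kinases (2 of 6). Sh2d1a, the gene of the adaptor SAP, had its highest mean in E2A knock out tumours (12.08 ± 0.27, n = 2) and its lowest in p53 knock out tumours (9.13 ± 1.55, n = 3). Without replicate 2 the p53 knock out mean was 10.01 ± 0.40 (n = 2), next to 10.03 ± 0.61 in beta-catenin tumours (n = 3). Nfatc2, which encodes a calcium-dependent transcription factor, was highest in beta-catenin tumours (9.41 ± 0.15, n = 3) and lowest in p53 knock out tumours (8.41 ± 0.10, n = 3). Cd5 was lowest in rag E2A knock out tumours (7.63 ± 0.21, n = 2), and Icos, a costimulatory receptor gene of the CD28 family, had its highest mean there (9.05 ± 0.98, n = 2). The 2 Icos values behind that mean lay far apart.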

How the data were processed

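Total RNA had been extracted with Trizol and labelled as biotinylated cRNA, per the labels' protocols. The authors deposited linear intensity values of 22690 probe sets for each of 53 arrays. The normalization method was not given in the sources used here. A scaling of overall level can move any difference between groups. The deposited values were converted to log2 here.

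Groups follow the genotype labels and replicate numbers the titles, except that Cdkn2a knock out arrays were numbered in accession order. The gene table of the array gave 16 probe sets to 9 of the 10 genes and none to Lck. One linear model with a mean per background was fitted to all 53 arrays and 15585 probe sets with limma 3.58.1 (lmFit, contrasts.fit, eBayes) in R 4.3.3. Tests were two-sided and p-values were adjusted by Benjamini-Hochberg across every probe set tested (threshold 0.05). Each of the 13 backgrounds without a TLX1 transgene was compared with the other 12, each weighted equally, TLX1 and crossed tumours with the mean of the 13 and with each other, and 3 further pairs directly. The members, gene lists and tests were chosen with earlier results of these data known. Named genes were all members, up to 3 genes per pathway list with the largest F among those that passed, the 5 genes most like the CD3 chains, and markers of other cells that moved with a result. Promoter windows came from RefSeq (GRCm38.p6). The model was tested on simulated data. Alternatives were other filters, quantile normalization, array centring, trended and robust eBayes, gene-level values, the largest array set, array set, beta-actin ratio or replicate number as a covariate, all 14 other backgrounds, and leaving out each array. Correlations and background means without p53 knock out replicate 2, and counts without 1420716_at, were added after seeing the data. Plots used Matplotlib 3.10.9 in Python 3.11.15.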

Additional observations from a re-analysis of the deposited data

Results flagged for a closer look

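In 27 groups of 6 or 9 arrays of 1 gene (9 lead probe sets in crossed, TLX1 and Cdkn2a knock out tumours), 2 single arrays lay far from the rest of their group by Dixon's test. Chance gives about 1 such array in every 20 groups examined, so 2 in 27 is near what chance gives. Cd3g in crossed replicate 1 was 11.93, where the other 5 crossed arrays read 12.44 to 12.73, a gap of 0.64 of the whole range. The same array was the lowest crossed array in Cd3d at 8.71 and in Cd28 at 9.01, and its myeloid marker sum was 91503. Cd28 in Cdkn2a knock out replicate 1 was 8.45, where the other 8 read 9.92 to 11.18, a gap of 0.54 of the range. Its second Cd28 probe set read 8.69, also the lowest of the 9.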

How the results depend on the processing

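The counts of member probe sets are 10 for the test among 13 backgrounds, 17 higher and 30 lower in single backgrounds, and 8 between crossed and TLX1 tumours, with 0 in the other 3 pairs. Leaving out each array in turn gave 9 to 12, 15 to 19, 27 to 32 and 7 to 9, and 0 in those pairs. Without the dim Cd247 probe set 1420716_at they were 9, 13, 29 and 8. Counted over 9 genes in place of 15 probe sets, the first 4 counts were 5, 3, 16 and 4 with each gene at its probe set of highest mean, and 6, 6, 17 and 4 with the mean of its probe sets. The lower calls numbered 14 in the largest array set alone, 11 with array set as a block (both leave out the crossed comparisons, and the first also TLX1) and 18 once the beta-actin ratio was a covariate. Replicate numbers did not pair the samples: over 216 same-number pairs the deviations from group means correlated between -0.30 and 0.34 (median -0.01). With the replicate block, which leaves out the Cdkn2a knock out arrays, 6 member probe sets differed among backgrounds and 11 were higher. Without 1 array, differences of p53 knock out tumours ran between -2.22 and 0.078 for Cd3d, -1.23 and 0.074 for Cd3e, -1.79 and 0.13 for Cd247, and -1.73 and 0.35 for Lat. Without replicate 2 those 4 turned positive and Cd3g stayed at -0.20. In the largest array set alone and with array set as a block, where the p53 knock out value rests on replicate 3 (the other two lie in the TLX1 set), Cd3d (0.31), Cd3e (0.21), Cd3g (0.39) and Lat (0.41) reversed, and Cd247 was -0.54 and not called. Centring the arrays reversed Lcp2 in crossed tumours against the 13 others (0.00215), and that centring alone raised the median of all probe sets by 0.30. All 24 called lead differences kept their direction and call under both filters and trended and robust eBayes. The cause of the other dependences was not tested. Among all probe sets, centring also moved the share of higher calls among all calls in backgrounds with no member call: to 65.0% (50.2% as deposited) in E2A knock out, 75.1% (32.7%) in rag E2A knock out, 44.6% (30.8%) in Nup98HoxD13 and 66.7% (33.8%) in Tal1-LMO2 tumours, and to 60.2% (24.7%) in LMO1 and 62.8% (32.5%) in olig1-LMO1 tumours, where members had 2 higher and 0 lower, and 1 higher and 0 lower. The number of arrays, 2 or 3 in most backgrounds, limits what can be detected.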
